A study of Drosophila melanogaster with 3 samples.

Results

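The insulin receptor gene InR and the adjacent cell cycle gene E2f1 carried one of the densest groups of Ultrabithorax (Ubx) peaks on chromosome arm 3R of Drosophila S2-DRSC cells. The members were the peaks of the deposited list whose midpoint lay on 3R from 17390000 to 17500000 in the dm3 build. There were 29 such peaks, out of 2318 on 3R and 10337 in the list. They were chosen by position, in a stretch selected on its number of listed peaks. Counts, spacing, coverage, widths and scores of these 29 peaks are therefore descriptions, and no test was made on them. S2-DRSC is a fly cell line derived from late embryos. All 3 samples came from cells of the genotype HA::Ubx, a stable transfection with Ubx carrying an HA epitope tag, kept in 10 micromolar copper sulphate for 24 h. There were 2 replicates of an HA immunoprecipitation and 1 input sample, with no group of cells without the transgene. Both replicates share 1 list of peaks, so no value below has a replicate error, and the binding of HA-Ubx supplied by a transgene is what was measured.

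Ubx is a Hox transcription factor with a homeodomain that sets the identity of the posterior thorax, and in the fly it makes the haltere a smaller organ than the wing. InR is the receptor tyrosine kinase that binds insulin-like peptides and drives growth through phosphatidylinositol 3-kinase and Akt. E2f1 is the activating E2F transcription factor, which with its partner Dp switches on genes needed for entry into S phase and is held back by the retinoblastoma protein Rbf. In the gene annotation both genes lie on the minus strand, with E2f1 upstream of InR.

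Each peak has a score deposited by the authors, whose quantity is not given in the descriptions. Strong and weak below refer to this score only. Read depth per sample is unknown. Over the whole list the median score was 24.9, and over 3R it was 25.9.

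Peaks are given in dm3, whereas the gene annotation used here is of Release 6. Gene positions below are Release 6 coordinates. Genes were laid beside the peaks with the constant shift of 4174278 bp on 3R that the rule for the members states. This shift was checked on the peaks themselves. With the shift, 37.5% of the 3408 outermost starts of protein-coding genes on 3R lay under a peak. With a shift of 2000 to 10000 bp more or less, the share was between 7.13% and 9.51%. In steps of 100 bp the stated shift gave the highest share, over the whole arm and also over the 265 genes within 1 Mb of the locus, where it was 41.9%, against 6.79% to 17.7% at 2000 to 10000 bp more or less. At 100 bp less and 100 bp more than the stated shift, the share over 3R was still 36.3% and 36.9%. The check therefore hardly separates shifts 1 step apart, and it sums over many genes. Distances of about 100 bp or less between a peak edge and a gene feature are uncertain.

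**Figure D1:**
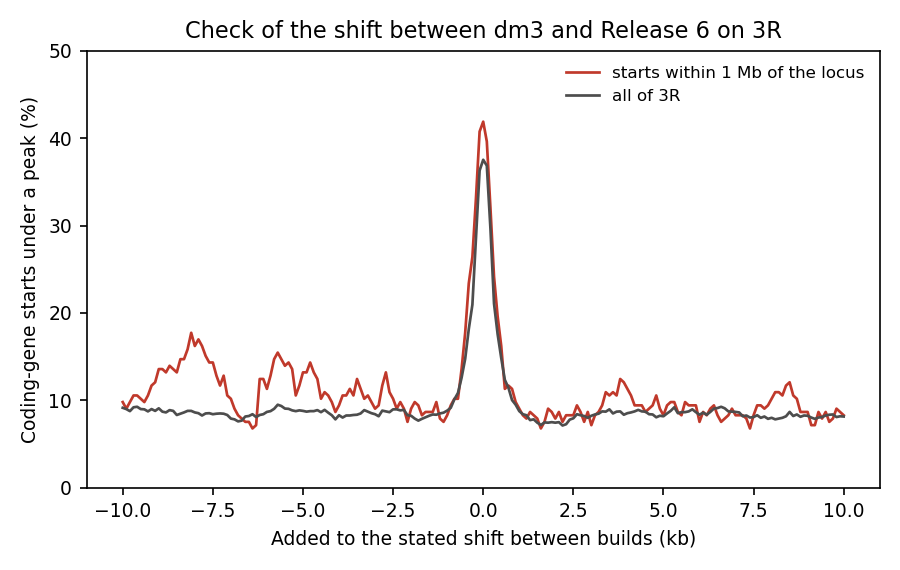
Share of outermost protein-coding gene starts that lie under a peak (%, vertical axis) when the stated shift between the builds is changed by up to 10 kb either way (horizontal axis), for genes within 1 Mb of the locus and for all of 3R. Both lines are highest at the stated shift, at 41.9% near the locus and 37.5% over 3R, and at 2000 bp or more from it the line near the locus reaches at most 17.7%.

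The region held 2.64 peaks per 10 kb, against a median of 0.727 in the other windows of 110 kb laid end to end along 3R. Of 253 windows, 1 held more peaks, with 37 at 12000000 to 12109999, and 1 other also held 29, at 11780000 to 11889999. Peaks covered 30.8 kb of the InR and E2f1 window, or 28.0% of it, against a median of 5.61% in the others. That was place 2 by coverage, after 30.3% in the window with 37 peaks. The median score of 34.3 stood at place 29 among the 196 windows with at least 5 peaks, whose median was 25.5 without the locus. The highest single score of the locus, 75.8, put it at place 66 of the 253 windows. The locus ranked higher by its number of peaks and covered length than by the strength of any one peak. It was selected on that number, and the covered length follows from the same peaks.

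**Figure D2:**
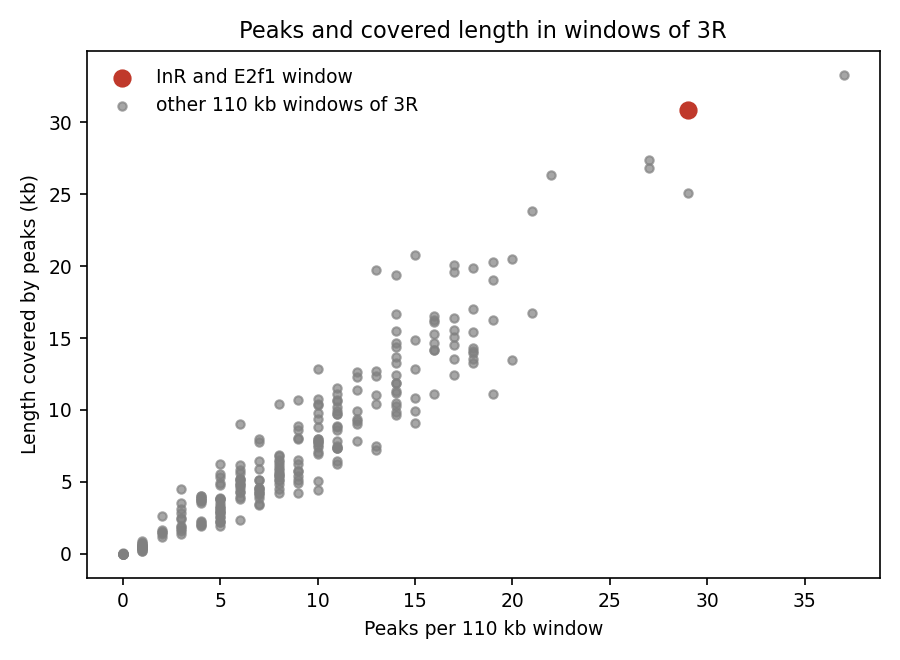
Number of peaks (horizontal axis) and length covered by peaks in kb (vertical axis) for windows of 110 kb on 3R, each point being 1 window. The InR and E2f1 window, with 29 peaks over 30.8 kb, lies near the upper end, below the window with 37 peaks.

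The peaks formed a block with wide empty flanks. The nearest peak on the low-coordinate side was 58152 bp from the first member, and the nearest on the other side was 47263 bp from the last. The first member had its midpoint 16201.5 bp inside the lower limit of the region and scored 56.0. The last member had its midpoint 2449 bp inside the upper limit and scored 48.1. The neighbours just outside scored 34.7 and 12.7. No peak would therefore enter or leave the region if its limits were moved by 2 kb.

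Within the region the 11 bins of 10 kb held between 0 and 5 peaks. The fullest, with 5, ran from 17450000 to 17459999 and lies in E2f1. Of the 2790 such bins along 3R, 29 (1.04%) held 5 or more. Bins with 4 peaks lay at 17440000 to 17449999, where the upstream end of InR meets the downstream end of E2f1, and at 17470000 to 17479999 and 17480000 to 17489999, both over the upstream part of E2f1. The only empty bin was the first, 17390000 to 17399999, which includes the last part of InR.

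Members lay close to one another, with a median gap of 975.5 bp between adjacent edges, against 3957 bp on 3R. Of the 29 peaks, 28 (96.6%) had another midpoint within 5000 bp, against 73.8% on 3R. The number of such neighbours had a median of 3 and reached 6, while the median on 3R was 1. The smallest gap, 85 bp, separated the peaks at 17482166 to 17482689 and 17482775 to 17483523. When peaks with edges under 1000 bp apart were joined, the 29 peaks became 15 stretches, of which 7 held more than 1 peak. The longest joined stretch measured 6959 bp, from 17438825 to 17445783, and held 4 peaks over the upstream end of InR. The next measured 6173 bp, from 17455222 to 17461394, and held 4 peaks over the inner starts of E2f1. After joining, the region was at place 5 among the windows by number of peaks.

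**Figure D3:**
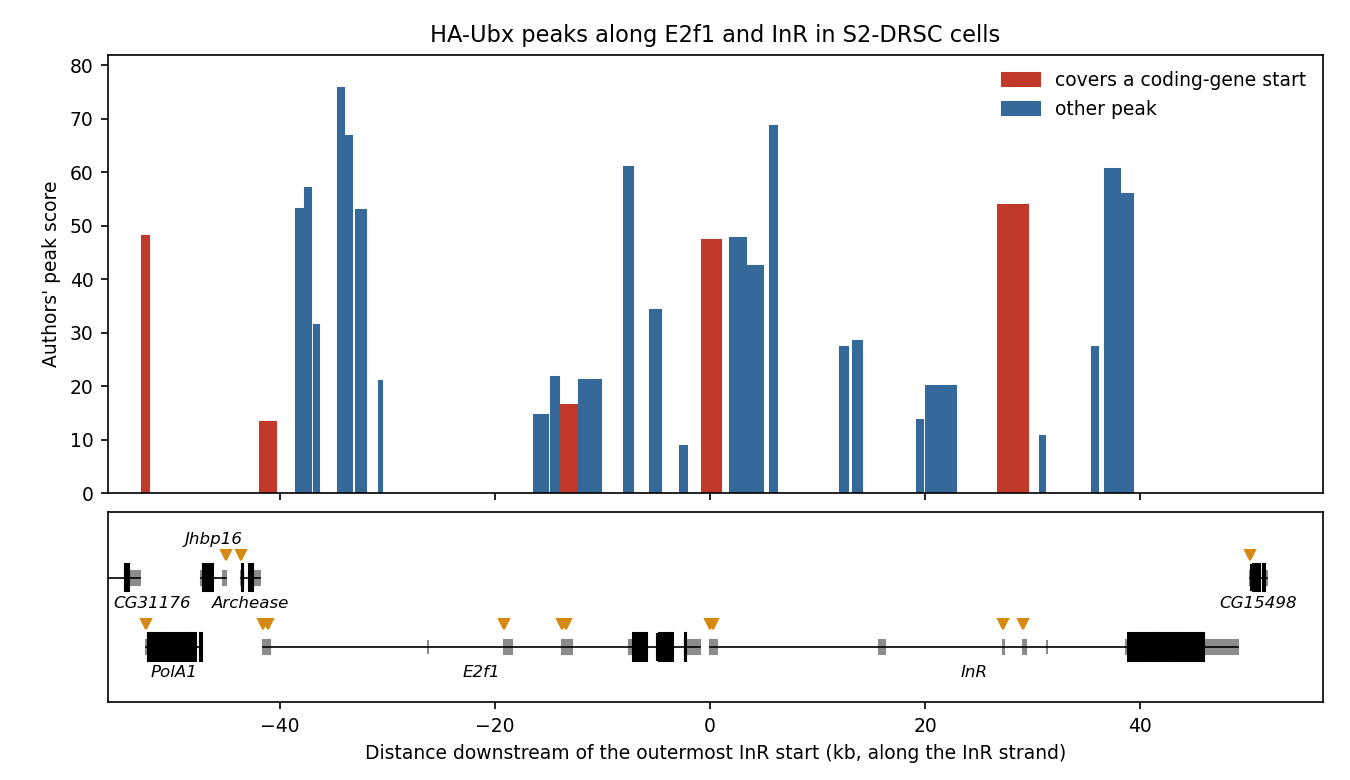
Upper panel: each bar is 1 of the 29 peaks, drawn at its true width, with the authors' score as height, against distance in kb downstream of the outermost InR start. Lower panel: protein-coding genes of Release 6 placed with the stated shift, with coding exons in black, other exons in grey and annotated starts as triangles. Transcription of InR and E2f1 runs from left to right. High bars stand inside the upstream part of E2f1 and, at InR, near its starts and at the edge of its coding exons, and the peaks over the E2f1 starts are low, at 13.3 and 16.4.

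The labelled genes accounted for nearly all members. InR (FBgn0283499, 3R 21570248 to 21619321 in Release 6, 49074 bp) held 13 midpoints. E2f1 (FBgn0011766, 3R 21620304 to 21660871, 40568 bp) held 15. The remaining peak lay at the start of PolA1, which encodes the catalytic subunit of DNA polymerase alpha. Among the 3408 protein-coding genes of 3R, E2f1 was at place 3 by number of midpoints, level with 1 other gene, and InR was at place 8, also level with 1 other. Long genes have more room for peaks. Among the 240 genes of at least 20 kb, E2f1 was at place 2 by density with 3.70 midpoints per 10 kb, behind tara, and InR was at place 8 with 2.65, where the median was 0.372. Peaks covered 32.2% of the length of InR and 32.8% of that of E2f1.

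InR has 4 annotated transcripts with 4 different starts, and all 4 starts lay under a peak. On 3R, 38.4% of the 4631 distinct starts of protein-coding genes did. Of the 99 genes of 3R with 4 or more distinct starts, 9 (9.09%) had every start covered. Since the locus was chosen for its many peaks, these shares are set side by side only. The 2 outer starts, at 21619036 and 21619321, lay under the peak at 17443996 to 17445783, which measured 1788 bp and scored 47.3. The 2 inner starts, at 21590191 and 21592121, lay some 27 to 29 kb further downstream, under the peak at 17415496 to 17418297. This was the widest member, at 2802 bp, and scored 54.0. It was at place 120 of the whole list by width.

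Between the outer and the inner starts, InR had 7 further peaks, all with midpoints in introns. The 3 nearest to the outer starts lay 2.59, 4.22 and 5.87 kb downstream and scored 47.6, 42.5 and 68.7. The last of these, at 17438825 to 17439516, was at place 2 among the members by score and stood above 94.8% of the list. The other 4 were weaker. A pair at 12.5 and 13.7 kb scored 27.4 and 28.4, and a pair at 19.5 and 21.5 kb scored 13.6 and 19.9. The peak at 21.5 kb, from 17422192 to 17424938, was wide at 2747 bp in spite of its low score. It is the 1 member whose score is written with more than 5 decimals, as are 3.28% of the peaks on 3R, for a reason not stated in the descriptions.

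Downstream of the inner starts InR had 4 peaks. A weak one at 17413874 to 17414326 scored 10.7. A group of 3 at the edge of the coding part scored 27.4, 60.5 and 56.0, and its last peak, at 17405672 to 17406731, was the 1 InR peak with its midpoint in coding sequence. That midpoint lay 1.5 bp inside the coding limit, a margin smaller than the placement resolves. The InR coding sequence spans 21573394 to 21580481, and 12 of the 13 InR midpoints lay upstream of it, the other being the one at its limit. Peaks overlapped 532 of its 6432 coding bases (8.27%). The last 9702 bp of the gene, 19.8% of its length, held no listed peak.

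At E2f1 the strongest peaks lay inside introns and the peaks over its starts were weak. E2f1 has 6 annotated transcripts with 5 different starts, of which 4 lay under a peak. Among the 99 genes of 3R with 4 or more distinct starts, 24 (24.2%) had at most 1 start uncovered. The 2 outermost starts, at 21660432 and 21660871, lay under the peak at 17485424 to 17486896, which measured 1473 bp and scored 13.3, above only 14.4% of the list. The 2 innermost, at 21632693 and 21633073, lay under the peak at 17457395 to 17458985, which measured 1591 bp and scored 16.4. The remaining start, at 21638494, was 2822 bp from the nearest peak. Neither E2f1 start peak was in the upper 50% of the list by score, and with that stricter list the number of covered E2f1 starts was 0. The number for InR was still 4.

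Downstream of its outermost starts, E2f1 had 7 peaks between 3.44 and 10.9 kb, all within introns and none wider than 963 bp. They scored between 21.0 and 75.8, with a median of 53.1, and 5 of the 7 scored above 50. The strongest member of the region was among them, at 17479131 to 17479660, with a score of 75.8 that stood above 96.5% of the list and at place 88 on 3R. Its neighbour at 17478378 to 17478869 scored 66.7, at place 3 among the members. All 7 were narrower and scored higher than the peak over the outermost starts nearby, although the lowest, at 21.0, was below the list median of 24.9.

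A gap of 14132 bp followed, the longest between members, and the uncovered E2f1 start lies in it. Beyond it a run of 4 peaks from 17455222 to 17461394 surrounded the innermost starts. All 4 were low, scoring 14.6, 21.7, 16.4 and 21.2, and the last was 2033 bp wide. Nearer the coding exons, scores were mixed. The peak at 17452228 to 17453017 scored 61.0, at place 4 among the members, and overlapped 345 bases of untranslated exon. The next, at 17449646 to 17450675, scored 34.3 and overlapped 210 coding bases. The last E2f1 peak, at 17447187 to 17447822, had the lowest score of the members, 8.73, and overlapped 125 coding bases. Over the whole gene, peaks overlapped 335 of 2463 coding bases (13.6%).

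The E2f1 peaks had scores from 8.73 to 75.8 with a median of 31.4, and the InR peaks had scores from 10.7 to 68.7 with a median of 42.5. These ranges overlap. In the upper 50% of the list by score, InR had 10 of its 13 peaks and E2f1 had 8 of its 15.

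Several non-coding genes lie inside the spans of InR and E2f1. The microRNA genes mir-998 and mir-11 sit in an intron of E2f1. In Drosophila, mir-11 limits cell death by acting on pro-apoptotic genes. The weakest member, with a score of 8.73, covered the whole 143 bp hairpin gene mir-998, but by only 79 bp beyond its start. The start of mir-11 lay 471 bp from the edge of that peak, and mir-11 was under no peak. The antisense gene asRNA:CR46055 starts under the low peak over the innermost E2f1 starts. On the InR side, lncRNA:CR44034 lay wholly under the peak at 17440091 to 17441556, which scored 42.5, but its start was only 94 bp inside the edge. The start of lncRNA:Irar, which runs opposite to InR from near its inner starts, lay under the 2802 bp peak. The genes lncRNA:CR46056 and lncRNA:CR46057 in E2f1 overlapped no peak. Because these genes lie within or beside longer ones, a peak cannot be assigned to one or the other.

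The small genes on either side of the block had few peaks. Archease, Jhbp16 and CG15498 overlapped none. The start of PolA1 lay under the last member, at 17497212 to 17497890, which measured 679 bp, scored 48.1 and was the 1 member with no other midpoint within 5000 bp. It overlapped 98 coding bases of PolA1. The peak at the PolA1 start was therefore stronger than both peaks over E2f1 starts and close in score to that over the outer InR starts.

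By midpoint, 24 of the 29 members (82.8%) lay in introns of protein-coding genes, 3 in untranslated exons, 1 in coding sequence (the InR peak at the coding limit) and 1 between genes. On 3R, 40.8% of peaks lay in introns, 26.4% in untranslated exons, 4.18% in coding sequence and 28.6% between genes. The region itself is 68.5% intron, 10.2% untranslated exon, 14.4% coding sequence and 6.91% space between genes, and the part of this makeup in the intronic share was not tested. Coding sequence made up 14.4% of the region and 3.13% of the length under its peaks, against 7.21% of the length under all peaks on 3R. A start of a protein-coding gene was covered by 5 members (17.2%), against 50.6% of the peaks on 3R. This share falls as the number of members rises, and the region was selected on that number. Counted by start, all 4 of InR, 4 of 5 of E2f1 and that of PolA1 were covered. Those of Archease, Jhbp16 and CG15498 were not, and on 3R 38.4% of starts were.

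The 5 members over a start were mostly wide. A wider peak has more room to cover a start, so width is partly built into this grouping. Their widths were 2802, 1788, 1591, 1473 and 679 bp, with a median of 1591 bp, and the other 24 members had a median of 738.5 bp. On 3R the medians were 689 bp for the 1173 peaks over a start and 631 bp for the rest. Scores of the 5 fell into a low pair at E2f1 (13.3 and 16.4) and a higher set at InR and PolA1 (47.3, 48.1 and 54.0). The other 24 members ran from 8.73 to 75.8, with a median of 32.8. On 3R, peaks over a start had a median score of 26.1 and the rest 25.5. Over all members the median width was 790 bp, against 659 bp on 3R, and 14 (48.3%) scored above 38.5, the upper quartile of the list, against 27.3% of the peaks on 3R. Across the 29 members, which are not independent and come from 1 list, width and score had a Spearman rho of -0.035, against 0.22 on 3R.

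**Figure D4:**
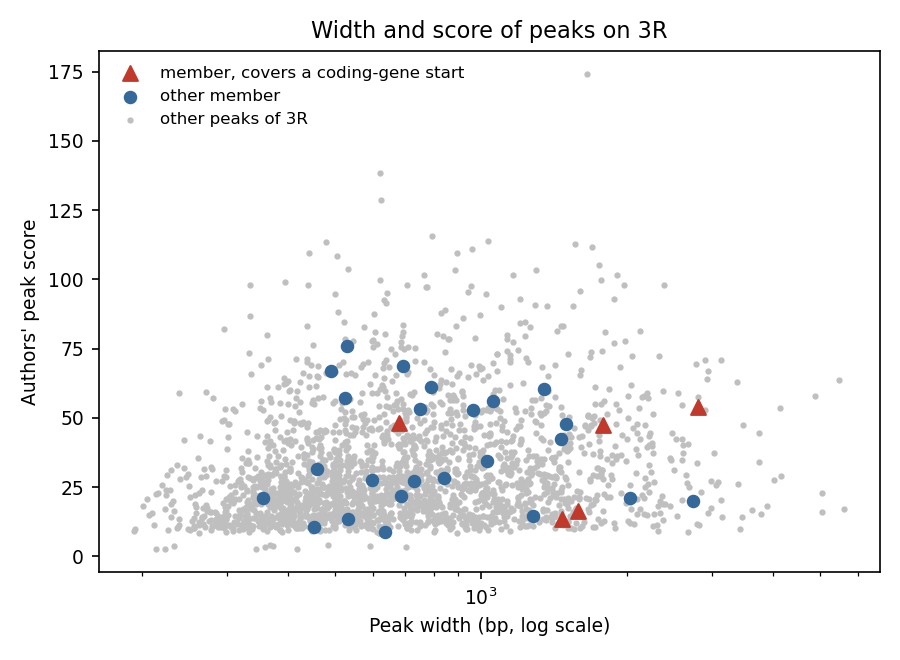
Width in bp (horizontal axis, log scale) and authors' score (vertical axis) of each peak on 3R, with the 29 members marked and the 5 that cover a protein-coding gene start as triangles. The 2 low triangles, at 13.3 and 16.4, are the E2f1 start peaks, and the triangle furthest to the right is the 2802 bp peak over the inner InR starts.

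Other genes of the same pathways on 3R had fewer peaks, but InR and E2f1, at 49074 and 40568 bp, were also the longest examined. These counts were not scaled by gene length. For example, 14-3-3epsilon had 3 midpoints in 8020 bp, foxo had 6 in 31034 bp, and Sdr had none in 4456 bp. Lists of 35 insulin and growth genes and 34 cell cycle genes were used, and the 10 of each that lie on 3R were examined, since the shift applies to that arm alone. Of the insulin and growth genes, 7 of 10 were overlapped by a peak, and of the cell cycle genes 9 of 10, against 45.9% of all protein-coding genes on 3R. With spans widened by 1000 bp on each side the counts were 8 and 9, against 57.4%. A start was covered in 7 and 8 of them, against 40.2%. The listed genes were longer, with median lengths of 5245 bp and 2837.5 bp, against 2114.5 bp over all genes of the arm. InR and E2f1 are themselves on the lists, and the lists were drawn up with earlier results of these data known.

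Downstream of the receptor, the lipid kinase subunit gene Pi3K92E had 1 peak scoring 27.5, and the kinase gene Akt had 1 scoring 41.5 over both of its starts. The gene of the forkhead factor foxo, which Akt restrains and which in flies activates InR itself, had 7 overlapping peaks, the strongest at 51.0, and both of its starts were covered. Both starts of 14-3-3epsilon, whose product binds phosphorylated foxo, were covered too, and the gene had 3 peaks with a highest score of 28.1. The adaptor gene Lnk and the growth inhibitor Tsc1 had 1 peak each, scoring 25.5 and 20.3. Rheb, the GTPase that Tsc1 keeps in check, had none, and neither did Sdr, a secreted decoy of the receptor, or tobi.

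Among the cell cycle genes, stg, the Cdc25 phosphatase gene that times entry into mitosis, had 2 peaks, 1 of them 3896 bp wide, with a highest score of 47.9, and both of its starts were covered. Cdk2, the kinase of the S phase cyclins, had 1 peak scoring 40.1. The replication genes Mcm2, Mcm5 and Orc2 had 1 each over their starts, with scores of 27.6, 10.1 and 22.6, and so did Rbf2, a retinoblastoma family gene, with 26.2. CycG had 2 peaks away from its starts, CycC had 1 over its start, and CycB3 had none. In the upper 50% of the list by score, 5 of the 10 cell cycle genes and 6 of the 10 insulin and growth genes had a peak, against 27.6% of all genes on 3R. After InR and E2f1, with 13 and 15 peaks, foxo with 7 was the gene with the most on either list.

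**Figure D5:**
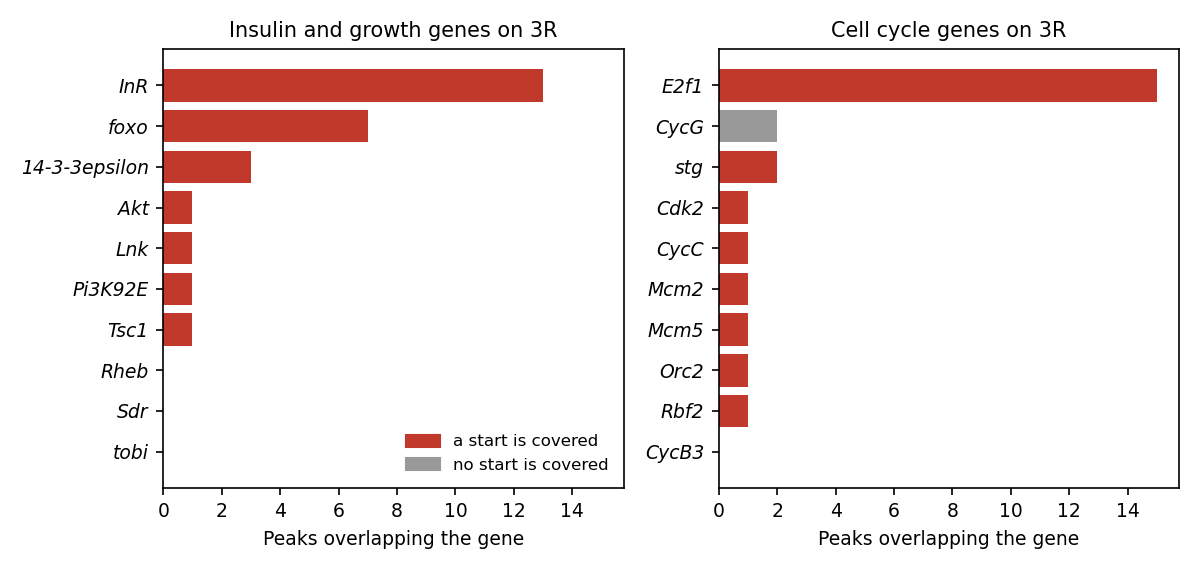
Number of peaks that overlap each of the 10 insulin and growth genes and the 10 cell cycle genes on 3R (horizontal axis), coloured by whether a start of the gene is covered. InR with 13 and E2f1 with 15 have the longest bars, followed by foxo with 7. Counts are not scaled by gene length, and InR and E2f1 are the longest genes shown.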

How the data were processed

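HA-Ubx chromatin immunoprecipitation was sequenced in 2 replicates with 1 input. The submitters' processing notes name BWA 0.7.12, MACS2 and the dm3 build. The handling of replicates, input and thresholds during peak calling is not given in these notes. The score deposited by the authors for each peak was used as it stands, from 1 headerless list common to both replicates. Peak starts were made 1-based. Gene spans, exons and transcript starts came from Ensembl release 115 (Release 6). They were laid on 3R with the constant shift stated in the text, and no other arm was placed. No sequence was read, because a dm3 genome was not used here, and the planned motif search was not made. Windows were laid end to end from the region. Ranks of windows by median score used those with at least 5 peaks. Helper functions were tested on simulated data with planted shifts. Named peaks were the 5 with the highest score, the widest and those nearest to the starts, and the rest are described by place. The members, lists and comparisons were chosen with earlier results of these data known. Of the listed gene symbols, 1 did not match the annotation. Depth per sample is unknown, so no precision follows from it. Alternatives covered the score limit, joining, window placement, flanks and distance to starts. Python 3.11.15, numpy 2.4.6, pandas 2.3.3, scipy 1.17.1 and matplotlib 3.10.9 were used.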

Additional observations from a re-analysis of the deposited data

How the results depend on the processing

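Of 28 recalculations, 19 stayed within a set limit and 9 did not. The limit was 1.5 times for a count or rank, and the 95% binomial interval for a share or median. That interval treats members as independent, which they are not, so it measures no error. For the median score it ran from 21.2 to 53.1, so 27.7, for members with gaps of 1000 bp or more on both sides, counted as unchanged. Some of the 19 could not have changed. No member scored below 5, all 4 InR starts were already covered, and no peak outside the region reached its limits. With the 50% of the list that scored highest, the members numbered 19 and not 29, E2f1 had 8 peaks and not 15, the covered E2f1 starts numbered 0 and not 4 (chosen after seeing the data), and 5 cell cycle genes had a peak and not 9. A smaller list lowers such counts by its construction. With peaks under 1000 bp apart joined, the members numbered 15 and the place of the region by peak count was 5 and not 2. With windows shifted by 55000 bp, its place by coverage was 1 and not 2. The share of members with another midpoint was 17.2% within 1000 bp and 72.4% within 2000 bp, against 96.6% within 5000 bp. No replicate could be left out, because both share 1 list. No paired analysis was possible because no column belongs to a single replicate. The depth behind each peak is unknown.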
